A study of Mus musculus with 15 samples.

Results

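White fat cells are named by a small set of genes, and 10 of them are described here in every labelled library of the series: Adipoq, Retn, Lep, Cfd, Pparg, Adrb3, Fabp4, Lpl, Sncg and Car3. They were picked by gene symbol, and all 10 were found among the 56953 genes of the deposited tables. The choice was made knowing that adipocyte markers had been lower in transplanted than in sham muscle, so the muscle differences below are a description and carry no test. The muscle stem cell (MuSC) comparison played no part in the choice and was tested.

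The study used wild-type mice of strain 129, labelled as 10-week-old males, with 10 animals stated. MuSCs of mice 5, 6 and 11 gave 3 libraries after the transplantation of each mouse's own MuSCs and 3 before it, from cells taken by biopsy. Quadriceps femoris muscle gave 6 libraries from transplanted mice (4, 14, 94, 5, 6 and 11) and 3 from sham-operated mice (3, 192 and 12), told apart by their titles, since the treatment label reads the same for all 9. The muscle libraries were deposited in separate tables, a 2-sham table with mice 4, 14, 94, 3 and 192 and a 1-sham table with mice 5, 6, 11 and 12. Total estimated counts were 17.09 to 22.98 M per library. Xist, the RNA of the inactive X chromosome, had 520 to 17053 counts in 14 of 15 libraries and 2 in transplanted 4, and 4 Y-linked genes together had 1 to 22 counts in any library, which goes against the label of male. The muscle marker Ckm was at 14845 to 21518 TPM in muscle, and the MuSC marker Pax7 at 11.8 to 21.6 TPM in MuSC libraries. In MuSC libraries Ckm was at 1.08 to 65.3 TPM after transplantation and 13.2 to 50.7 TPM before it. TPM, transcripts per M, are deposited values that allow for gene length.

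A fat cell stores triglyceride and also acts as an endocrine cell. Pparg is the nuclear receptor that drives fat cell differentiation, and many genes of the mature cell, among them Adipoq, Fabp4 and Lpl, are known targets of it together with C/EBP factors. Adiponectin (Adipoq), leptin (Lep), resistin (Retn) and adipsin (Cfd) are secreted, the beta-3 adrenergic receptor (Adrb3) starts lipolysis, and Lpl and Fabp4 bring in and carry fatty acids. In skeletal muscle, fat cells lie between the fibres and around the muscle, while Lpl is also made by the fibres, Car3 is abundant in slow fibres, Fabp4 is made by capillary endothelium and Sncg by peripheral neurons.

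Levels of the 4 secreted factors went up and down together from muscle to muscle, as did those of Adrb3, Sncg, Fabp4 and Pparg. Promoters of the 4 secreted factors are shown as examples. Each runs from 250 bases before to 50 bases after the transcription start on the plus strand, from RefSeq on GRCm38.p6: chr16:23146286-23146585 for Adipoq, chr8:3655520-3655819 for Retn, chr6:29059971-29060270 for Lep and chr10:79890603-79890902 for Cfd. Entries were found for 6 of the 10 genes, and those of Pparg and Sncg are not printed. Capitals mark matches, on either strand, to the CCAAT box, the C/EBP motif TTGCNNAA, the nuclear receptor element AGGTCA or the TATA box (TATAAA).
Adipoq: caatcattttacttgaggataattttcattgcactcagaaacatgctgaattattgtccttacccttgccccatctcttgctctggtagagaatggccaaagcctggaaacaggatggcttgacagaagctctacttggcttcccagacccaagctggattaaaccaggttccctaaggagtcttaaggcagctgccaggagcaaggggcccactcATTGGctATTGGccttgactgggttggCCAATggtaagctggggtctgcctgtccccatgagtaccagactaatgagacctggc
Retn: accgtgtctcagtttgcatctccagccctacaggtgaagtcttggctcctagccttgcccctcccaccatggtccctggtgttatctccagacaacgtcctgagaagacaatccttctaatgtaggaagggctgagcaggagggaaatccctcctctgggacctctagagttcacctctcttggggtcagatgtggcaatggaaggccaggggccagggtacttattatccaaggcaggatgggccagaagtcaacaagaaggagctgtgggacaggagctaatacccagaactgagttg
Lep: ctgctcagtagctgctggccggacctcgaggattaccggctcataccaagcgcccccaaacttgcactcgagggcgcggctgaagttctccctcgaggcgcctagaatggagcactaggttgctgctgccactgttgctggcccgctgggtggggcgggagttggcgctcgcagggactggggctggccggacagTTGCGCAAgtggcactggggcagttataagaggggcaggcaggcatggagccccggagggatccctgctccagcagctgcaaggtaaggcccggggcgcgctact
Cfd: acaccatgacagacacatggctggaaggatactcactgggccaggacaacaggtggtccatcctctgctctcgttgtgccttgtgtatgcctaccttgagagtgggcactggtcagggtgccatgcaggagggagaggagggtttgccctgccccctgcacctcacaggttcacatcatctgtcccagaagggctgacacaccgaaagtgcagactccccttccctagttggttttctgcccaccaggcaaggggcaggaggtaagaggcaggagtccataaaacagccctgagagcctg

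The Lep promoter held a palindromic C/EBP match that begins 55 bases before the start site, and 10.8% of all 32851 promoters of this length in the table held a match to that motif. The Adipoq promoter held 3 CCAAT matches, at 34, 27 and 7 bases before the start, where 37.4% of promoters held at least 1. The Retn and Cfd windows held none of the motifs searched. AGGTCA stood in 16.3% of all promoters and TATAAA in 13.6%, and neither stood in the 4 windows. The Pparg entries held AGGTCA at 28 and 9 bases before their start sites and TATAAA at 29, with C/EBP and CCAAT matches as well. The Sncg entry held no match.

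In quadriceps the 10 genes covered a wide range of levels (medians over the 9 libraries, deposited TPM). Car3, a carbonic anhydrase of fat and slow fibres, was highest at 1016 TPM, followed by the fatty acid carrier Fabp4 at 181.9 and the lipase Lpl at 153. Cfd stood at 51.8 TPM, the gamma-synuclein gene Sncg at 10.2, Adipoq at 9.79 and Retn at 6.47, with Pparg at 2.32, Adrb3 at 1.5 and Lep at 1.27 TPM the lowest. The library ranges of every pair of neighbours in this order overlapped. Even Car3, at 685 TPM in its lowest library, lay below Fabp4 in sham 12, at 833.6 TPM.

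**Figure D1:**
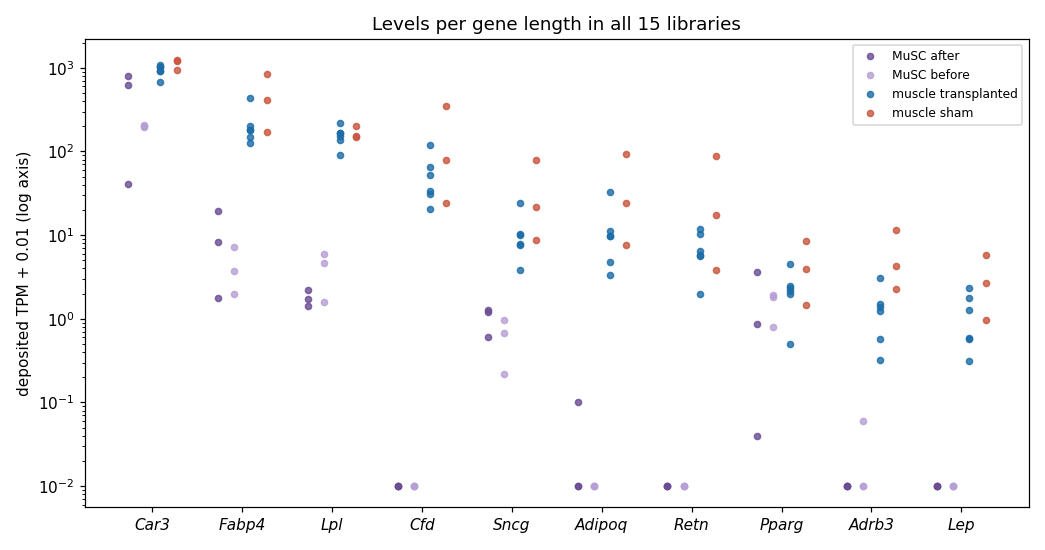
Deposited TPM plus 0.01 on a log axis for the 10 genes, 1 point per library, in MuSCs after and before transplantation and in transplanted and sham muscle. Cfd, Retn and Lep sit at the floor in every MuSC library, while Car3 lies between 40.8 and 786 TPM in MuSCs and between 685 and 1232 TPM in muscle.

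The 4 secreted factors were lower on average in transplanted than in sham muscle, but the groups overlapped for each of them. Values are CPM, counts scaled to a common total with TMM, and differences are log2 with the standard error of the edgeR fit, transplanted minus sham within tables. Adipoq (ENSMUSG00000022878.6, chromosome 16) had a lowest value of 3.12, a median of 8.71 and a highest value of 31.9 CPM in transplanted muscle, against 21.8, 6.31 and 71.7 CPM in shams 3, 192 and 12. Its difference was -1.57 ± 0.53, and it averaged 11.2 ± 10.4 CPM over 6 transplanted and 33.3 ± 34.2 CPM over 3 sham muscles (mean ± SD). Sham 12 was the highest of all 9 libraries and sham 192 lay below the median of transplanted muscle.

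Resistin, a hormone of fat cells in the mouse, showed the widest gap between sham 12 and every other library. Retn (ENSMUSG00000012705.17, chromosome 8) had a lowest value of 1.07, a median of 3.49 and a highest value of 6.91 CPM in transplanted muscle, against 9.11, 1.86 and 41.1 CPM in shams 3, 192 and 12. The level in sham 12 was 4.51 times that of the next library, and the difference was -2.04 ± 0.45. Shams 3 and 12 both exceeded every transplanted library, and sham 192 lay above transplanted 4 alone.

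Leptin, the hormone that reports fat stores to the brain, was the least abundant of the 4. Lep (ENSMUSG00000059201.13, chromosome 6) had a lowest value of 0.791, a median of 2.38 and a highest value of 6.58 CPM in transplanted muscle, against 6.97, 1.64 and 13.1 CPM in shams 3, 192 and 12. Its difference was -1.29 ± 0.62. Transplanted 6 came within reach of sham 3, and transplanted 4, 5 and 11 (0.791, 1.69 and 0.932 CPM) lay near or below sham 192.

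Adipsin, a serine protease of the alternative complement pathway, was the most abundant secreted factor. Cfd (ENSMUSG00000061780.7, chromosome 10) had a lowest value of 11.5, a median of 27.1 and a highest value of 71.5 CPM in transplanted muscle, against 42.1, 12.04 and 166 CPM in shams 3, 192 and 12. Its difference was -1.12 ± 0.49. Transplanted 6 lay above sham 3, and sham 192 lay above transplanted 4 alone.

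The regulator and the receptor of the set were also lower on average in transplanted muscle. Pparg (ENSMUSG00000000440.13, chromosome 6) had a lowest value of 0.838, a median of 3.31 and a highest value of 6.77 CPM in transplanted muscle, against 5.30, 1.86 and 9.74 CPM in shams 3, 192 and 12, a difference of -0.85 ± 0.40. Adrb3 (ENSMUSG00000031489.16, chromosome 8) had a lowest value of 0.605, a median of 1.66 and a highest value of 4.79 CPM in transplanted muscle, against 7.77, 1.59 and 17.1 CPM in shams 3, 192 and 12. The Adrb3 difference of -2.16 ± 0.50 was the largest of the 10, and both shams 3 and 12 stood above every transplanted library.

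Fabp4 and Sncg differed in the same direction from higher and lower base levels. Fabp4 (ENSMUSG00000062515.4, chromosome 3) had a lowest value of 81.8, a median of 101 and a highest value of 268 CPM in transplanted muscle, against 238, 95.1 and 423 CPM in shams 3, 192 and 12, a difference of -1.03 ± 0.31. Sncg (ENSMUSG00000023064.5, chromosome 14) had a lowest value of 2.002, a median of 4.77 and a highest value of 13.5 CPM in transplanted muscle, against 10.8, 4.03 and 34.8 CPM in shams 3, 192 and 12, a difference of -1.62 ± 0.34. In both genes transplanted 6 exceeded sham 3, and sham 192 fell among the transplanted libraries.

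Lpl and Car3, which muscle fibres make as well, hardly differed on average and did not single out sham 12. Lpl (ENSMUSG00000015568.17, chromosome 8) had a lowest value of 319, a median of 533 and a highest value of 784 CPM in transplanted muscle, against 691, 481 and 429 CPM in shams 3, 192 and 12, a difference of -0.04 ± 0.24. Car3 (ENSMUSG00000027559.6, chromosome 3) had a lowest value of 871, a median of 1202 and a highest value of 1547 CPM in transplanted muscle, against 1505, 1051 and 1239 CPM in shams 3, 192 and 12, a difference of -0.16 ± 0.15. Sham 12 was the lowest sham for Lpl and the middle one for Car3. The summed slow fibre markers, a list of 8 genes including Myh7, ranged from 418 to 5172 CPM in transplanted muscle and from 737 to 2656 CPM in shams, with 737 CPM in sham 12, and their part in these values was not tested.

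**Figure D2:**
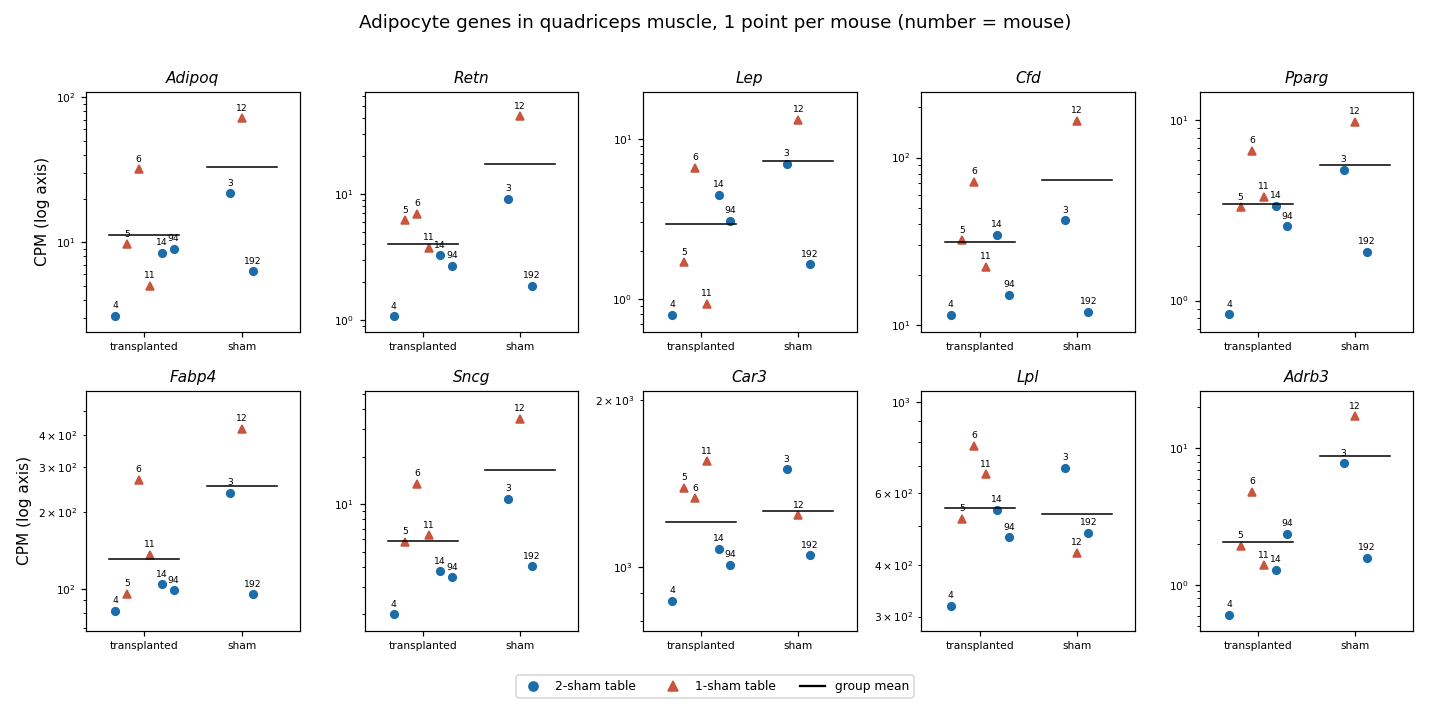
CPM on log axes for each gene in quadriceps, 1 point per mouse with its number, transplanted left and sham right, circles for the 2-sham table, triangles for the 1-sham table and lines for group means. Sham 12 is the highest point for 8 of 10 genes, transplanted 4 is the lowest for all 10, and sham 192 lies among the transplanted mice for each gene.

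Over the set, 10 of 10 log2 differences were below 0, where 50.1% of the 14375 genes tested were, and 7 of 10 were below -1, where 1.44% were. This contrast chose the genes, so nothing is read from these counts. With edgeR's quasi-likelihood test 0 genes of the whole table passed an adjusted p of 0.05 (0%; 1018 at an unadjusted p under 0.05), and DESeq2 called 6 of all genes. For none of the 10 did every transplanted library lie below every sham, which held for 0.96% of genes. Sham 12 was the highest library for 8 of the 10 genes and for 11.6% of all genes. It also stood apart in composition, with 9.29% mitochondrial counts against 12.2 to 16.0% in the other muscle libraries. It had 20200 genes detected, against 19345 to 19761 in the others. The part of this in the differences was not tested. Transplanted 4 was the lowest for all 10 and for 14.8% of all genes. Transplanted 4 is also the library with 2 Xist counts, and without it 9 of 10 differences were below 0 with a median of -1.08, against -1.20 with it. In whole tissue, fewer fat cells and less of an RNA per fat cell cannot be told apart.

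The size of the differences depended on which sham was present. In the 2-sham table alone the differences were -1.04 ± 0.53 for Adipoq, -1.23 ± 0.63 for Retn, -0.64 ± 0.70 for Lep and -0.41 ± 0.55 for Cfd. In the 1-sham table, where sham 12 alone was set against 3 transplanted mice and assumed to vary like them, they were -2.20 ± 0.71, -2.87 ± 0.26, -2.08 ± 0.75 and -1.98 ± 0.49 for the same genes. Without sham 12 the median over the 10 genes was -0.74, and without sham 192 it was -1.65. Within the 2-sham table, sham 3 had 21.8 and sham 192 had 6.31 CPM of Adipoq. Lpl stood at 0.62 ± 0.23 in the 1-sham table and at -0.40 ± 0.24 in the 2-sham table, and Car3 at 0.21 ± 0.16 and -0.38 ± 0.18, so both changed sign between tables.

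**Figure D3:**
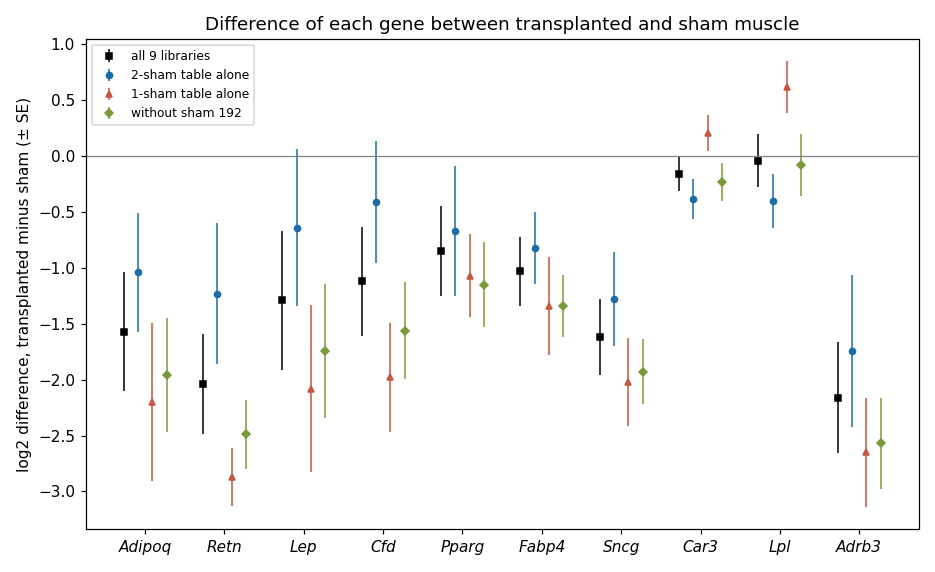
Log2 difference of each gene, transplanted minus sham, with its standard error, from all 9 libraries, from either table alone and without sham 192. Adipoq, Retn, Lep, Cfd, Pparg, Fabp4, Sncg and Adrb3 lie below 0 in all 4 fits, while Lpl and Car3 lie on opposite sides of 0 in the 2 tables.

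Relative to Adipoq in the same library, the fat-restricted genes spread less between mice. Adrb3 had 15 to 27.8 counts per 100 Adipoq counts in transplanted muscle and 23.9 to 35.7 in shams, and its CPM spanned 28.32-fold over the 9 libraries. Retn had 21.7 to 74.1 counts per 100 Adipoq counts in transplanted muscle, against 41.9, 29.4 and 57.3 in shams 3, 192 and 12. Sncg had 38.3 to 126 in transplanted muscle and 48.6 to 63.9 in shams, with transplanted 11 at the top. On this scale the transplanted and sham libraries overlapped for each of the 9 other genes.

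Lep relative to Adipoq split by table rather than by group. In the 1-sham table it was at 17.5, 20.7 and 18.5 counts per 100 Adipoq counts in transplanted 5, 6 and 11, against 18.3 in sham 12. In the 2-sham table it was at 25.4, 52.9 and 34.1 in transplanted 4, 14 and 94, against 32.0 and 26.1 in shams 3 and 192. Every library of the 2-sham table thus lay above every library of the 1-sham table. Lpl, by contrast, had 2460 to 13300 counts per 100 Adipoq counts in transplanted muscle and 3170, 7620 and 598 in shams 3, 192 and 12, so that it did not follow Adipoq in sham 12.

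**Figure D4:**
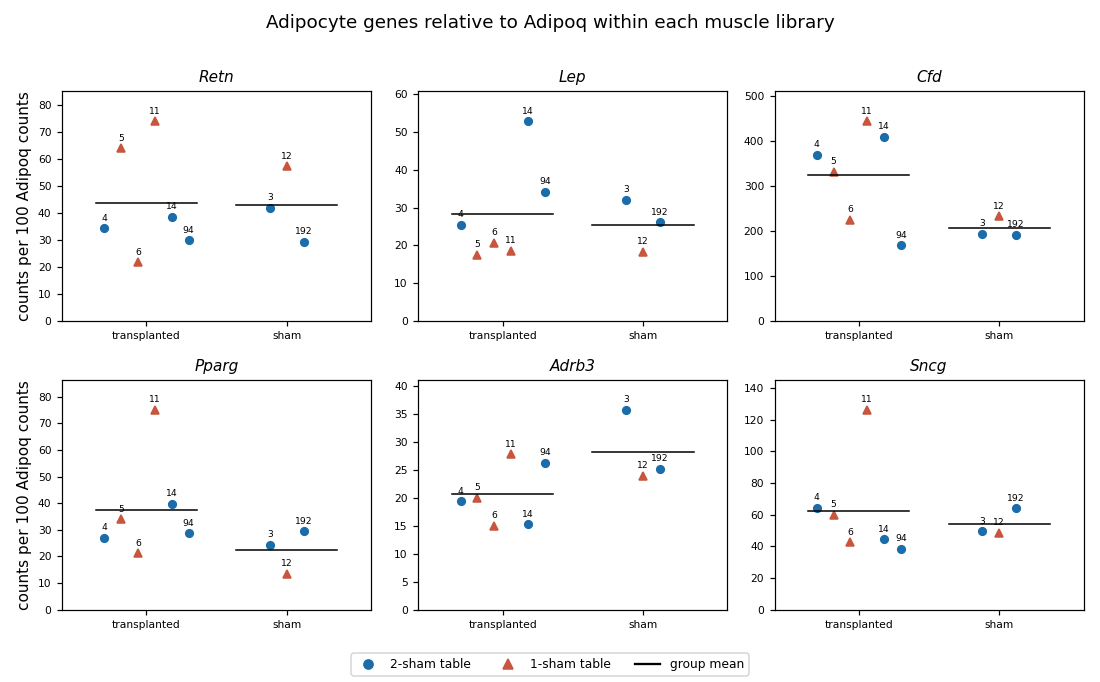
Counts of Retn, Lep, Cfd, Pparg, Adrb3 and Sncg per 100 Adipoq counts in the same muscle library, 1 point per mouse with its number, transplanted left and sham right, circles for the 2-sham table, triangles for the 1-sham table and lines for group means. The groups overlap in every panel, and the Lep panel shows the 2-sham table above the 1-sham table, 25.4 to 52.9 against 17.5 to 20.7.

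Across the 9 muscle libraries, with log2 CPM centred within tables, Adipoq ran closest to Lep among the other 9 genes (Pearson r = 0.977, Spearman rho = 0.983). Adrb3 (0.958), Sncg (0.943), Cfd (0.926), Retn (0.915), Fabp4 (0.904) and Pparg (0.882) followed by Pearson r, and Lpl (0.216) and Car3 (0.194) did not. Without the 2 libraries farthest from the median, transplanted 11 and sham 12, Lpl reached 0.963 and Car3 0.766, and Lep was at 0.960. These values describe 9 libraries that share 3 shams. No p was computed, because the genes were chosen knowing that adipocyte markers differed between these muscles.

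Of 11531 other genes with a mean of at least 1 CPM, the 10 closest to Adipoq were Ankef1, Acp5, Lipe, Tenm4, Ntrk2, Plin1, Klb, Cidec, Trf and Ppp2r1b (r = 0.967 to 0.992). Lipe is hormone-sensitive lipase, Plin1 and Cidec coat the lipid droplet, Klb is the fibroblast growth factor co-receptor beta-klotho, and Trf is transferrin. These genes were picked by likeness to Adipoq in the same libraries, so their group means follow from the choice and support nothing. Ankef1 and Klb averaged 0.723 and 0.385 CPM in transplanted muscle, and reached a mean of 1 CPM through the shams (2.55 and 2.35 CPM). Plin1 averaged 9.17 ± 7.54 CPM in transplanted muscle and 29.6 ± 25.8 CPM in shams, with 56.8 CPM in sham 12. Cidec averaged 6.72 ± 6.29 and 14.2 ± 12.3 CPM in transplanted and sham muscle. Without transplanted 11 only 2 of these genes were still among the closest 10, without transplanted 4 there were 5, and without transplanted 6 there were 6.

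Other fat genes were counted from lists made with earlier results of these data known, and 0 genes of any list passed edgeR's adjusted threshold, as for all genes (0%). Beside the adjusted test, 4.08% of all genes were lower in transplanted muscle at an unadjusted p under 0.05, 3.01% were higher, and the median difference of all genes was 0. The list counts below are a description and lend no support. The lists were made knowing this contrast, and their genes can vary together, as Lipe, Plin1 and Cidec did with Adipoq. Of 14 other adipocyte identity genes, 13 were negative and 8 were lower at an unadjusted p under 0.05 (median -1.45, and -1.06 without sham 12). The lowest log2 difference of this list was that of Acvr1c, an activin receptor, at -2.28 ± 0.48, with 0.729 ± 0.473 CPM in transplanted muscle and 3.37 ± 2.14 CPM in shams. The highest was that of Gpam, a glycerol phosphate acyltransferase, at 0.12 ± 0.12, with 223 ± 15.2 CPM in transplanted muscle and 209.6 ± 50.3 CPM in shams. Of 12 fatty acid synthesis genes, 10 were negative and 9 lower at an unadjusted p under 0.05 (median -1.35, and -0.69 without sham 12). Elovl6, a fatty acid elongase, was at 5.47 ± 4.34 CPM in transplanted muscle and 25.7 ± 21.1 CPM in shams, and the regulator Mlxipl at 62.6 ± 16.7 and 60.0 ± 18.6 CPM. The summed CPM of this list ranged from 644 to 1400 in transplanted muscle and from 663 to 4682 in shams, with 4682 in sham 12.

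Of 16 genes of lipid storage and lipolysis, 11 were negative and 7 lower at an unadjusted p under 0.05 (median -0.37). Cidea, a droplet protein, differed by -2.05 ± 0.77 and the phosphatase Lpin1 by 0.22 ± 0.12. Adipogenic transcription factors were divided, 6 negative and 6 positive (median 0.01). Of these 12, 3 were lower and 1 was higher at an unadjusted p under 0.05 in edgeR's test. Cebpa, a factor of the mature fat cell, was at 5.83 ± 3.96 CPM in transplanted muscle and 17.9 ± 13.8 CPM in shams, while Cebpd, which acts early in differentiation, was at 9.52 ± 3.91 and 5.36 ± 0.963 CPM. Receptors and partners of the 10 genes, such as the adiponectin receptors and the LPL anchor Gpihbp1, were 10 negative and 8 positive of 18 (median -0.05). In edgeR's test 3 of the 18 were lower and 1 was higher at an unadjusted p under 0.05. Gpihbp1 stood highest of these 18, at 0.34 ± 0.20, and Angptl8, an inhibitor of LPL, lowest, at -2.25 ± 1.23 from a mean of 0.0967 CPM in transplanted muscle and 0.478 CPM in shams. Gene family relatives were 5 negative and 6 positive of 11 (median 0.09, but -0.14 without sham 12), with the fatty acid carrier Fabp5 at -0.88 ± 0.25 and the nuclear receptor Ppard at 0.31 ± 0.11. Of 5 thermogenic genes, 2 were negative (median 0.16, but -0.15 with all 5 negative without sham 12), with Otop1 at -2.01 ± 0.51 and Cpt1b at 0.21 ± 0.15. Cox8b, Cox7a1 and Cpt1b averaged 1303, 804.9 and 92.6 TPM in muscle, against 0.239 for Otop1 and 0.454 for Dio2. Which cells made these RNAs was not tested, so the list median is not a measure of thermogenic fat.

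Markers of other cells were summed in the same libraries, and none of these list genes was at 0 throughout muscle. Fibroadipogenic progenitor markers totalled 763 to 1074 CPM in transplanted muscle and 913 to 1731 CPM in shams, with 1731 CPM in sham 12, and 10 of 12 were negative (median -0.35, and -0.13 without sham 12). Of these 12, 5 were lower and 0 higher at an unadjusted p under 0.05 in edgeR's test, where 4.08% and 3.01% of all genes were. Nothing is read from these counts either. Dpp4 stood at -0.98 ± 0.26 and Pi16 at 0.14 ± 0.21. Macrophage markers totalled 49.6 to 76.1 CPM in transplanted muscle and 54.1 to 95.2 CPM in shams, 9 of 9 negative (median -0.20, but 1 of 9 and 0.18 without sham 12), from Cd68 at -0.49 ± 0.29 to C1qc at -0.04 ± 0.22. Endothelial markers totalled 206 to 355 and 254 to 289 CPM in transplanted and sham muscle, 5 of 10 negative (median 0.01, and -0.09 without sham 12), from Cldn5 at -0.24 ± 0.21 to Esam at 0.15 ± 0.13. Schwann cell and nerve markers, of interest for Sncg, totalled 39.5 to 133.5 and 49.9 to 90.9 CPM in transplanted and sham muscle, 7 of 10 negative (median -0.10, and -0.34 without sham 12), from Cdh19 at -0.51 ± 0.34 to Ncmap at 0.71 ± 0.62. Red blood cell markers totalled 48.7 to 156 and 87.5 to 182 CPM in transplanted and sham muscle, 5 of 5 negative (median -0.37), from Alas2 at -0.66 ± 0.42 to Hba-a1 at -0.24 ± 0.29. Fast myofibre markers were positive in 10 of 10 (median 0.19), from Myh4 at 0.02 ± 0.16 to Myh1 at 0.32 ± 0.33, slow fibre markers in 8 of 8 (median 0.15, but -0.71 with all 8 negative without sham 12), from Myh7 at 0.05 ± 0.71 to Myl3 at 0.28 ± 0.76, and MuSC markers in 4 of 9 (median -0.13), from Myf5 at -1 ± 0.41 to Des at 0.20 ± 0.10. The part of these cells in the differences of the adipocyte genes was not tested.

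In MuSCs the fat-restricted genes were at or near 0. Retn, Lep and Cfd had 0 counts in all 6 libraries, which allows up to 0.026 CPM over 115.36 M counts. Adipoq had 2 counts in after 6 and 0 in the other libraries, and Adrb3 had 1 count in before 6 and 0 in the others. Plin1 and Cidec, droplet proteins of fat cells, had 0 counts in every MuSC library. Sncg had 11, 15 and 7 counts in after 5, 6 and 11, against 10, 7 and 2 in before 5, 6 and 11. These 6 members fell under the filter on low counts, so 4 of the 10 were tested.

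The 4 tested genes were Pparg, Fabp4, Lpl and Car3. Pparg was at 4.64, 1.54 and 0.0584 CPM in after 5, 6 and 11, against 2.21, 1.37 and 2.47 CPM in before 5, 6 and 11. Fabp4 was at 3.94, 1.28 and 14.7 CPM in after 5, 6 and 11, against 1.74, 1.37 and 3.55 CPM in before 5, 6 and 11. After 11 held both the lowest Pparg and the highest Fabp4 value of the 6 libraries.

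Lpl was at 5.19, 5.96 and 6.25 CPM in after 5, 6 and 11, against 16.6, 5.19 and 13.03 CPM in before 5, 6 and 11. The libraries after transplantation lay close together, and before 6 matched them. Car3 was at 789, 946 and 64.2 CPM in after 5, 6 and 11, against 197, 300 and 219 CPM in before 5, 6 and 11. It was higher than in any library before transplantation in after 5 and after 6, and lower than in any of them in after 11. Summed fast fibre markers ranged from 1237 to 5443 CPM after and from 2986 to 11460 CPM before. Summed slow fibre markers ranged from 1101 to 1854 CPM after and from 1185 to 2372 CPM before. The part of differentiated muscle RNA in the Car3 values was not tested.

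None of the 4 differences passed edgeR's quasi-likelihood test. The log2 difference after minus before was 0.05 ± 1.08 for Pparg (adjusted p = 0.989), 1.57 ± 0.88 for Fabp4, 1.33 ± 0.82 for Car3 and -1 ± 0.47 for Lpl (adjusted p = 0.873 for each of these 3). Of the 13512 genes tested edgeR called 0 (0%; 305 at an unadjusted p under 0.05), and DESeq2 called 16, none of them among the 4. All libraries after lay above all before in 3.35% of genes and below in 2.98%, and in none of the 4. A p above the threshold does not show that the groups were alike.

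After 11 stood apart, with 1.2% mitochondrial counts against 4.44 to 6.28% in the other MuSC libraries. Without after 11 the differences were 0.23 ± 0.70 for Fabp4, 1.87 ± 0.32 for Car3 (adjusted p = 1 in edgeR's test for both) and 0.61 ± 0.62 for Pparg. The sample descriptions put the number first for after 5, before 5 and before 11 (set A) and the letter first for after 6, after 11 and before 6 (set B). Within set A, where after 5 stood alone and was given the spread of the others, Car3 differed by 1.94 ± 0.22 (edgeR adjusted p = 0.0505), Lpl by -1.5 ± 0.39, Fabp4 by 0.59 ± 0.68 and Pparg by 1 ± 0.57. Within set B, with 1 library before, the values were 0.74 ± 1.18 for Car3, 0.23 ± 0.75 for Lpl, 2.53 ± 1.42 for Fabp4 and -0.77 ± 1.52 for Pparg. Lpl and Pparg thus changed sign between the sets.

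**Figure D5:**
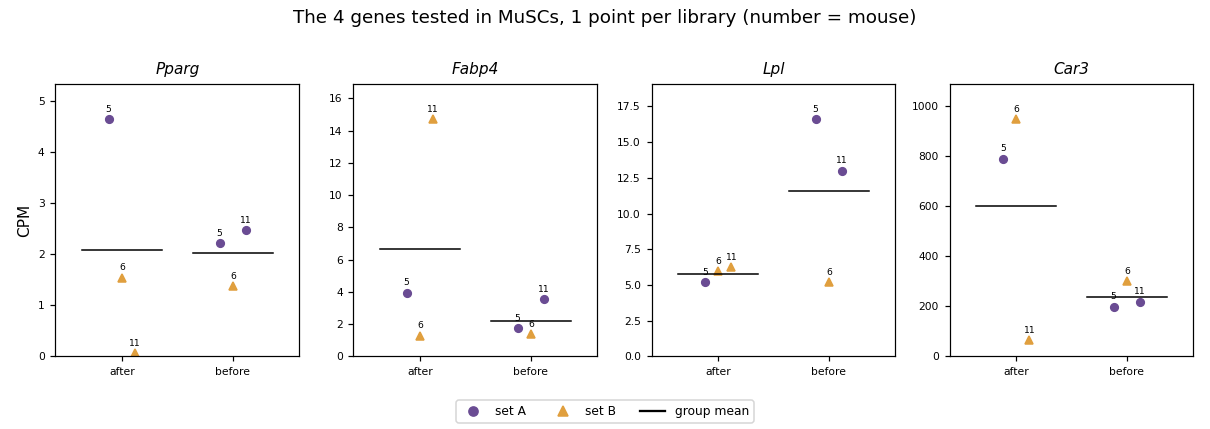
CPM of Pparg, Fabp4, Lpl and Car3 in MuSCs, 1 point per library with its mouse number, after left and before right, circles for set A, triangles for set B and lines for group means. The groups overlap in every panel, and after 11 is the lowest point for Pparg (0.0584 CPM) and Car3 (64.2 CPM) and the highest for Fabp4 (14.7 CPM).

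Among the other fat genes of MuSCs, 0 passed. Of 12 measured genes of lipid storage and lipolysis 7 were positive (median 0.23), of 10 of fatty acid synthesis 5 (median 0.09) and of 9 adipogenic transcription factors 6 (median 0.41), beside a median of 0.02 over all genes tested. The other adipocyte identity genes were measured in 3 of 15, with Lgals12, Pck1 and Slc36a2 at 0 counts in all 6 libraries.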

How the data were processed

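RNA sequencing of 6 MuSC and 9 muscle libraries was deposited in 3 tables. Per the file headers, the authors give estimated counts, TPM and FPKM for each gene; FPKM were not used. No label or header names an aligner, a quantifier or an annotation release. GRCm38 and mm10 appear in the submitters' processing notes; only 1446 of 52029 genes shared with GENCODE on GRCm38 had the same coordinates there, so none are printed from the tables. Another 3 columns matched no sample's labels and were not used.

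The deposited estimated counts were rounded (7.99% were not whole) and tested with edgeR 4.0.16 (filterByExpr, minimum count 10, TMM, quasi-likelihood, Benjamini-Hochberg over all genes, threshold 0.05, 2-sided), with DESeq2 1.42.0 as an alternative. MuSCs were compared without a covariate and muscle with the table as a term. The fits were tested on simulated data in which every gene had the same spread. That check does not carry over to genes that varied more between mice, as most of the 10 did. Likeness to Adipoq used log2 CPM with a prior count of 2, leaving out predicted genes. The genes named are the 10 members, the highest and lowest of each list in the muscle fit and the 10 most like Adipoq, with a few others chosen after their values were seen. The members and lists were chosen with earlier results of these data known.

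Replicates of 1 table differed by more than counting noise (chi-square over its degrees of freedom, 16.72 to 461.84). Same-numbered MuSC libraries come from the same mouse per the labels, and their deviations from the group means correlated at 0.31 (mouse 5), 0.38 (mouse 6) and -0.46 (mouse 11). Pairs from different mice ran from -0.71 to 0.61. The highest were after 11 with before 6 (0.61, both set B) and after 5 with before 11 (0.53, both set A). These correlations therefore do not set same-mouse pairs apart, though deviations from means of 3 libraries can hardly show pairing. Titles number the mice, so muscle p-values measure the spread between these animals and their libraries. In MuSCs the main test took the 6 libraries as independent, although 3 mice gave them. Its p-values thus measure a spread between libraries that leaves the pairing out. Floors of 3 counts cover counting error only.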

Additional observations from a re-analysis of the deposited data

Results flagged for a closer look

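Among the 6 transplanted muscles, Adipoq was at 31.9 CPM in transplanted 6, set apart from the other 5 libraries by a gap that made up most of the group's range. Fabp4 was set apart in the same library, at 268 CPM. All 10 genes were examined in this way, and chance sets apart about 1 in 20 groups.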

How the results depend on the processing

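In muscle, Adipoq, Retn, Lep, Cfd, Pparg, Fabp4, Sncg and Adrb3 stayed below 0 in all 15 alternatives, from -2.87 to -0.40, while Car3 (-0.38 to 0.21) and Lpl (-0.40 to 0.62) changed sign. In MuSCs, Fabp4 (0.23 to 2.53) and Car3 (0.74 to 1.94) kept their sign over 13 alternatives. With the mouse number as a replicate block the differences were -0.66 for Pparg, 1.08 for Fabp4, 0.77 for Car3 and -0.86 for Lpl, and the block changed no call. Pparg also turned to -0.77 in set B, and leaving out 1 library gave -1.34 to 0.61; Lpl turned to 0.23 in set B.

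Genes called in MuSCs numbered 0, 16 with DESeq2, 43 in set A and 0 without any 1 library. In muscle they numbered 0, 12 with no filter, 6 with DESeq2, 1 in the 2-sham table, 41 in the 1-sham table and 0 to 4 without any 1 library. The cause was not tested. Depth limits Adrb3, Lep and Pparg most among the 10 genes in muscle, with 13, 17 and 18 counts in transplanted 4.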

Other observations

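Deposited TPM and counts did not always rank libraries alike, and Adrb3 in muscle is 1 example. Transplanted 94 had 44 counts and 1.37 TPM, while sham 192, with a similar library total (18.07 and 18.38 M), had 30 counts and 2.25 TPM. Car3 in MuSCs is another, at 946 CPM and 618.86 TPM in after 6 against 789 CPM and 786.23 TPM in after 5. The gap followed the library set. In set A, Car3 was at 197 CPM and 194 TPM in before 5 and at 219 CPM and 209 TPM in before 11. In set B it was at 64.2 CPM and 40.8 TPM in after 11 and at 300 CPM and 200 TPM in before 6. Fabp4 split likewise, with 3.94 CPM and 8.29 TPM in after 5 against 14.7 CPM and 19.6 TPM in after 11. The cause was not tested, and MuSC TPM of the 2 sets should be compared with care. TPM divides by a gene length that the tables do not give. CPM were used for differences between libraries.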
